A study of Mus musculus with 9 samples.

Results

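The 8 γ-crystallin genes of the mouse, *Cryga*, *Crygb*, *Crygc*, *Crygd*, *Cryge*, *Crygf*, *Crygn* and *Crygs*, were taken by symbol from the 55416 genes counted in E16.5 lens RNA, and all 8 passed the filter on low counts. RNA of the whole lens came from 4 *Atf4* null and 5 wildtype embryos, with a single pair of lenses per library. The null embryos were homozygous for the *Atf4* tm1Tow allele, in which a neomycin cassette stands in place of exons 3 and 4, the wildtype embryos were their littermates, and both genotypes were on a mixed C57Bl/6/129 background that was not typed for the *Bfsp2* deletion of the 129 strain. The comparison shows which γ-crystallin transcripts differ in a lens without ATF4, a transcription factor of the integrated stress response and of amino acid metabolism. As separate embryos are the replicates, the p-values below measure the spread between embryos.

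Crystallins are the bulk of the soluble protein of the lens, and their dense packing in fiber cells gives the lens its refractive power. The γ-crystallins are small monomeric proteins of the βγ superfamily, built from Greek key motifs, and they are made chiefly as fiber cells elongate and mature. *Cryga* to *Crygf* are closely related genes on chromosome 1 and are typical fiber cell genes, *Crygs* encodes γS-crystallin, which is prominent in the later lens cortex, and *Crygn* encodes γN-crystallin, whose gene combines features of the β and the γ families. Variants in several of these genes cause congenital cataract in mice and people.

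In *Atf4* null lenses, 6 of the 8 γ-crystallin transcripts fell, by 1.93-fold to 6.26-fold, where 3.67% of all genes tested were called lower, and with 1 library left out at a time 3 to 6 of them were called. *Crygn* fell most, *Crygb*, *Crygf* and *Crygs* fell by 2.25-fold to 2.65-fold, and *Crygd* and *Crygc* fell by 2.00-fold and 1.93-fold. *Cryge* and *Cryga*, at 72.4% and 74.0% of the wildtype mean, did not pass the test. Within each library, 21 of the 28 ratios between members did not overlap between genotypes, and 6 of the 8 members were lower against the α- and β-crystallins without overlap, as were 1.48% of all genes tested. *Cryba1*, *Cryba2*, *Cryba4* and *Crybb3*, themselves β-crystallins, were also lower on that scale without overlap, while *Cryaa* and *Crybb1* were higher.

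Wildtype libraries held 8409779 to 8906996 and null libraries 7440807 to 8696699 counts on genes, and a member had between 536 and 71074 counts in a library. *Atf4* itself had 119 to 155 CPM (counts scaled by library size and TMM factors) in wildtype and 0.58 to 10.6 CPM in null libraries. Wildtype replicate 5 stood apart from the other wildtype libraries, with 0.977% of its counts on a list of 9 skeletal muscle genes and 1.49% on a list of 8 mesenchyme genes, against at most 0.00867% for either list in wildtype replicates 1 to 4. The mesenchyme list took 0.0192% to 0.0573% of the counts in null libraries, all above wildtype replicates 1 to 4 (0.00378% to 0.00867%), and the muscle list 0.00255% to 0.0137%. The γ-crystallin CPM of wildtype replicate 5 were 52.2% to 65.8% of the mean of the other 4 wildtype libraries. Retina markers were higher in null libraries, with 0.0227% to 0.0791% of the counts on 7 genes against 0.0114% to 0.0208% in wildtype, and 4 of the 7 were called higher, where 2.23% of all genes tested were. Of 10 lens fiber markers, 9 were tested and 4 of them fell, where 3.67% of all genes tested were called lower, while *Lim2* is listed at 0 in all 9 libraries. Against the same share, 6 of 7 lens epithelium markers were called lower, with a median log2 fold change of -2.04, and the list took 0.0972% to 0.127% of the counts in wildtype and 0.0308% to 0.075% in null libraries. Of 5 blood genes, 1 was called lower and all 5 had a fold change below 0, with 0.0206% to 0.0689% of the counts in wildtype and 0.0206% to 0.0257% in null libraries. In whole lenses, fewer fiber cells and less RNA per fiber cell cannot be told apart. The part of these other tissues and cells in the values below was not tested, and the tests of the members are also given without wildtype replicate 5.

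How far the copies can be told apart sets what their counts measure. Reads with more than 1 alignment, 5.03% to 5.74% of the entries of a library, and reads over more than 1 gene, 1.88% to 2.48%, were not assigned to any gene. Among the 6 chromosome 1 members, the coding sequences were 79.3% to 98.1% identical, with *Cryge* and *Crygf* the closest pair (512 of 522 bases) and *Crygd* and *Cryge* at 91.6%. *Crygn*, on chromosome 5, was 55.7% to 59.1% and *Crygs*, on chromosome 16, was 57.0% to 60.2% identical to the others. The 60 bases below are the stretch of the coding alignment in which the chromosome 1 members differ most, with 37 variable positions, and they show the kind of difference on which the assignment of a read rests. They are given 5′ to 3′ on the coding strand from the GENCODE vM39 transcripts (GRCm39), and a capital marks a base that is not the single commonest of the 6 at its position.
Cryga: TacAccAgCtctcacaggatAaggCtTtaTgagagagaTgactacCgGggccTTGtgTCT
Crygb: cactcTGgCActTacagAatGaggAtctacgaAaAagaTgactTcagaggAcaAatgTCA
Crygc: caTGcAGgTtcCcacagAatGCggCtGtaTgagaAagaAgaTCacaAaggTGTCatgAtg
Crygd: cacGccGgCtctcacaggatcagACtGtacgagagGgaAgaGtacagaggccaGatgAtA
Cryge: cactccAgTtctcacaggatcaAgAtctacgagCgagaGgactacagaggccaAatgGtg
Crygf: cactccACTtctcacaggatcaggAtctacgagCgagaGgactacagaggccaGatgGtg

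The stretch spans coding bases 250 to 309, or 253 to 312 in *Crygb*, and lies in exon 3, except for its first 3 bases, which are in exon 2 in the other members. Its exon 3 part is at chr1:65139828-65139884 in *Cryga*, chr1:65119667-65119726 in *Crygb*, chr1:65110974-65111030 in *Crygc*, chr1:65101285-65101341 in *Crygd* and chr1:65087999-65088055 in *Cryge*, all on the minus strand, and at chr1:65967130-65967186 in *Crygf* on the plus strand. Of the 100-base words of each transcript, all those of *Crygn* and *Crygs* occurred in no other counted gene. The share was 88.2% in *Crygd*, 88.1% in *Crygf*, 82.2% in *Crygc*, 77.7% in *Crygb*, 76.9% in *Cryge* and 52.7% in *Cryga*. *Cryge* shared 12.98% of its words with *Crygd* and 10.1% with *Crygf*, and *Crygb* and *Crygc* shared theirs with each other. *Cryga* shared 47.3% with Gm28845, an overlapping gene on the same strand that had 0 counts in all 9 libraries. With words of 50 bases, *Cryge* kept 46.4% and *Cryga* 48.2%. Reads that fitted several genes were left out in both genotypes, so a fold change of a gene rests on its unique part, while its level leaves out the shared part.

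*Crygn* (ENSMUSG00000038135, chromosome 5 from 24956001 to 24963006, minus strand, GRCm39) had 2087, 1919, 1840, 1916 and 1085 CPM in wildtype replicates 1 to 5 and 191, 306, 275 and 358 CPM in *Atf4* null replicates 1 to 4. Every null library was below every wildtype library, replicate 5 included, and none of the 100-base words of *Crygn* occurred in another counted gene. Gm33591, a long noncoding RNA gene that was not among the genes counted, spans *Crygn* on the plus strand. The strand setting of the counting is not given, and the part of Gm33591 in the counts of *Crygn* was not tested. The log2 fold change was -2.65 with an SE of 0.22 (adjusted p = 2.2e-05, the quasi-likelihood test of edgeR, adjusted by the Benjamini-Hochberg method over 14903 genes). *Crygn* also had the narrowest spread among null libraries, with a coefficient of variation of 24.6% against 33.6% to 46.4% in the other members. Without wildtype replicate 5, the log2 fold change was -2.77.

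*Crygb* (ENSMUSG00000073658, chromosome 1 from 65119378 to 65121458, minus strand) had 3805, 3657, 3946, 4044 and 2244 CPM in wildtype replicates 1 to 5 and 816, 1236, 1168 and 2114 CPM in null replicates 1 to 4. The genotypes did not overlap, but wildtype replicate 5 and null replicate 4 stood close to each other. The log2 fold change was -1.41 with an SE of 0.25 (adjusted p = 0.0045, edgeR), and -1.53 without wildtype replicate 5.

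*Crygf* (ENSMUSG00000025945, chromosome 1 from 65965679 to 65967466, plus strand) lies about 823 kb from *Cryga*, apart from the other 5, and is the only one of the 6 on the plus strand. It had 4945, 4672, 4900, 4964 and 2872 CPM in wildtype replicates 1 to 5 and 1001, 1672, 1552 and 2971 CPM in null replicates 1 to 4. Null replicate 4 was just above wildtype replicate 5, and all other null libraries were below all wildtype libraries. The log2 fold change was -1.31 with an SE of 0.26 (adjusted p = 0.0096, edgeR), and -1.43 without wildtype replicate 5.

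*Crygs* (ENSMUSG00000033501, chromosome 16 from 22623953 to 22630327, minus strand) was the least abundant member, with 232, 261, 296, 264 and 174 CPM in wildtype replicates 1 to 5 and 53.4, 120, 103.7 and 160.0 CPM in null replicates 1 to 4. The genotypes did not overlap. Gm30416, a long noncoding RNA gene that was not among the genes counted, spans *Crygs* on the plus strand, and its part in these counts was not tested. The log2 fold change of *Crygs* was -1.17 with an SE of 0.25 (adjusted p = 0.0148, edgeR). Without wildtype replicate 5, it was -1.27 (adjusted p = 0.0023, edgeR). It lost its call only when *Atf4* null replicate 3 was left out, among the 17 alternatives tried, with an adjusted p of 0.0573 (edgeR).

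*Crygd* (ENSMUSG00000067299, chromosome 1 from 65100997 to 65102752, minus strand) had 3643 to 6411 CPM in wildtype and 1712 to 4449 CPM in null libraries, and *Crygc* (ENSMUSG00000025952, chromosome 1 from 65110684 to 65112848, minus strand) had 1403 to 2539 CPM and 754 to 1819 CPM. In both genes, null replicate 4 was above wildtype replicate 5, and the other 3 null libraries were below all wildtype libraries. The log2 fold changes were -0.998 with an SE of 0.24 (adjusted p = 0.026, edgeR) for *Crygd* and -0.95 with an SE of 0.24 (adjusted p = 0.0313, edgeR) for *Crygc*. Without any 1 of null replicates 2 and 3 and wildtype replicates 1 to 4, both lost their calls, with adjusted p between 0.0625 and 0.0965 (edgeR) for *Crygd* and between 0.0715 and 0.109 (edgeR) for *Crygc*, and *Crygc* also did so without null replicate 1 (0.0627, edgeR). Without wildtype replicate 5, the adjusted p were 0.0023 for both genes (edgeR), with log2 fold changes of -1.12 and -1.07.

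*Cryge* (ENSMUSG00000070870, chromosome 1 from 65087713 to 65090400, minus strand) had 8764, 8583, 8393, 8996 and 4787 CPM in wildtype replicates 1 to 5 and 3472, 5397, 5327 and 8683 CPM in null replicates 1 to 4. Null replicate 4 lay among wildtype replicates 1 to 4, and wildtype replicate 5 lay among the null libraries. The log2 fold change was -0.47 with an SE of 0.24 (adjusted p = 0.306, edgeR), and -0.59 without wildtype replicate 5 (adjusted p = 0.0726, edgeR). *Cryga* (ENSMUSG00000044429, chromosome 1 from 65139548 to 65142537, minus strand) had 496 to 1021 CPM in wildtype and 409 to 923 CPM in null libraries. Its log2 fold change was -0.43 with an SE of 0.23 (adjusted p = 0.335, edgeR), and -0.57 without wildtype replicate 5 (adjusted p = 0.0665, edgeR). Leaving out null replicate 1 or null replicate 4 moved the log2 fold change to -0.28 or -0.74 for *Cryge* and to -0.26 or -0.67 for *Cryga*, with no call in either gene. In both genes the difference between the means was close to the SD of either genotype.

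**Figure D1:**
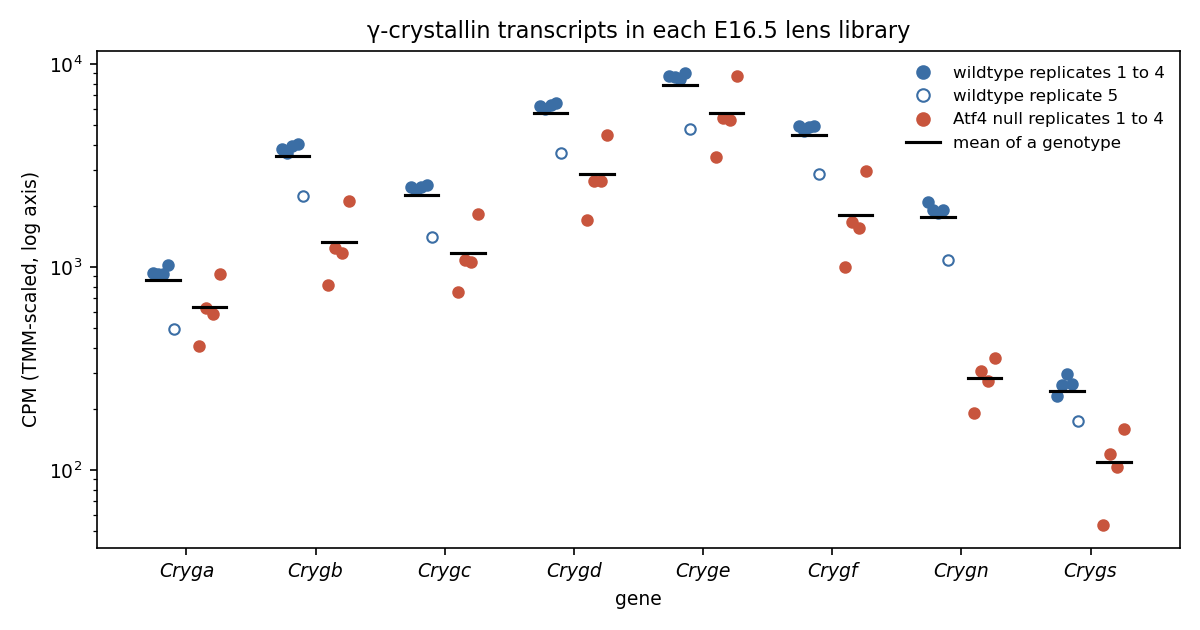
CPM of each γ-crystallin gene (TMM-scaled, logarithmic axis) in each of 5 wildtype and 4 Atf4 null lens libraries, with 1 point per library and a line at the mean of a genotype. Crygb, Crygn and Crygs do not overlap between genotypes, and wildtype replicate 5 (open points) is the lowest wildtype library for all 8 genes.

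Thus 6 of the 8 members were called lower and 0 higher, where 3.67% of all 14903 genes tested were called lower and 2.23% higher. Without wildtype replicate 5, the same count of 6 was called, against 4.96% of 14493 genes lower. The count was 3 without null replicate 3, 4 without null replicate 2 or any 1 of wildtype replicates 1 to 4, 5 without null replicate 1 and 6 without null replicate 4. The median log2 fold change over the 8 members was -1.08, beside 0.00 over all genes tested. The CPM of 3 members, *Crygb*, *Crygn* and *Crygs*, did not overlap between genotypes, as was the case for 5.58% of all genes, in the same direction. By an exact two-sided permutation test of mean log2 CPM, these 3 had p = 0.0079, the smallest possible value, *Crygf* had p = 0.016, *Crygc* and *Crygd* had p = 0.024, *Cryga* had p = 0.14 and *Cryge* had p = 0.15.

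Null libraries kept nearly the same order in every member. Null replicate 1 was the lowest and null replicate 4 the highest of the null libraries in all 8 genes. Among null libraries, replicate 1 held the highest and replicate 4 the lowest share of retina markers (0.0791% and 0.0227%). This was also so for lens epithelium (0.0750% and 0.0308%) and skeletal muscle markers (0.0137% and 0.00255%), and for entries on no gene (24.4% and 15.75%). The highest shares of mesenchyme and blood genes were in null replicate 2. The part of any of these in the order of the members was not tested. As a description over 9 libraries that share depth and scaling, the deviations of log2 CPM from the genotype means had a Pearson r of 0.966 to 0.997 between pairs of chromosome 1 members. The r of *Crygn* with the other members was 0.866 to 0.967, and that of *Crygs* was 0.866 to 0.932.

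The ratio of 2 members in the same library does not depend on library scaling, and it shows whether they changed by different amounts. Of the 28 pairs, 21 had ratios without overlap between genotypes, each with p = 0.0079, the smallest an exact permutation test can give here (two-sided), and an adjusted p of 0.0106 over the 28 ratios. *Crygn* fell against all 7 other members. The count ratio of *Crygn* to *Cryge* was 0.213 to 0.238 in wildtype and 0.0412 to 0.0567 in null libraries, a difference of -2.14 on the log2 scale. Against *Crygb*, the member that fell next most, the ratio of *Crygn* was 0.4664 to 0.548 in wildtype and 0.169 to 0.248 in null libraries (-1.18, log2).

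Below *Crygn*, the chromosome 1 members can be described as pairs, which were drawn from these same ratios, so the ratios are no separate test of them. *Crygb* and *Crygf* both fell against *Crygc* and *Crygd* by 0.34 to 0.48 on the log2 scale, and these in turn fell against *Cryga* and *Cryge* by 0.48 to 0.60, in each case without overlap between genotypes. The count ratio of *Crygb* to *Cryge* was 0.434, 0.426, 0.470, 0.450 and 0.469 in wildtype replicates 1 to 5 and 0.235, 0.229, 0.219 and 0.243 in null replicates 1 to 4. The ratio of *Crygf* to *Cryge*, the pair with the most similar coding sequences, was 0.544 to 0.600 in wildtype and 0.288 to 0.342 in null libraries. Wildtype replicate 5 lay within or just above the other wildtype libraries in these ratios, although it stood apart in CPM.

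Within each pair, the differences were small, which is how the pairs were drawn. The log2 ratio of *Crygb* to *Crygf* differed by -0.07 (p = 0.15, adjusted p = 0.162, exact permutation test) and that of *Cryge* to *Cryga* by -0.06 (p = 0.22, adjusted p = 0.23, exact permutation test), and both overlapped between genotypes. The count ratio of *Crygd* to *Crygc* was 2.48 to 2.60 in wildtype and 2.27 to 2.52 in null libraries, a difference of -0.07 on the log2 scale with overlapping libraries (p = 0.032, adjusted p = 0.0404, exact permutation test). That last call was lost when the tail probability was doubled in place of taking the absolute difference (adjusted p = 0.0606). *Crygs* fell against *Cryga* and *Cryge* by 0.80 and 0.74 on the log2 scale, without overlap, while its ratios to *Crygb*, *Crygc*, *Crygd* and *Crygf* overlapped between genotypes, with adjusted p of 0.135 to 0.27 (exact permutation test). These libraries thus do not place *Crygs* among the pairs.

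**Figure D2:**
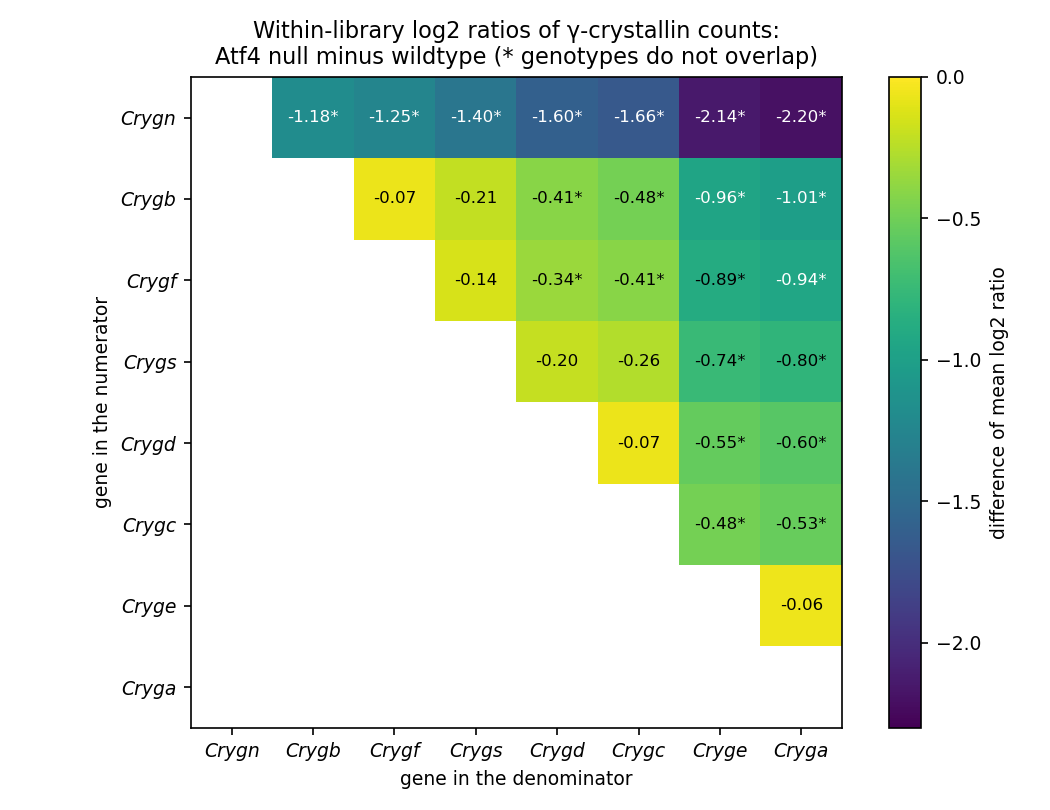
Difference between genotypes in the mean log2 ratio of the counts of 2 γ-crystallin genes in the same library, Atf4 null minus wildtype, with the numerator in rows and the denominator in columns. The 21 ratios with an asterisk do not overlap between 4 null and 5 wildtype libraries, and the unmarked ratios are those within the pairs and 4 of the 7 with Crygs.

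The makeup of the γ-crystallin counts also differed between genotypes. *Cryge* took 28.7% to 30.2% of the γ-crystallin counts in wildtype and 40.4% to 41.9% in null libraries. The share of *Cryga* was 3.19% ± 0.15 (SD, n = 5) in wildtype and 4.64% ± 0.25 (SD, n = 4) in null libraries. Those of *Crygb*, *Crygf* and *Crygn* were lower in null libraries, at 9.55% against 13.2%, 12.7% against 16.7% and 2.11% against 6.602%, without overlap. *Crygd* held 21.4% ± 0.34 (SD, n = 5) in wildtype and 20.5% ± 0.30 (SD, n = 4) in null libraries, a small difference without overlap. *Crygc*, at 8.45% and 8.49%, and *Crygs*, at 0.928% and 0.779%, overlapped between genotypes. Shares of counts add up to a whole, so the larger share of *Cryge* is relative to the members that fell.

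**Figure D3:**
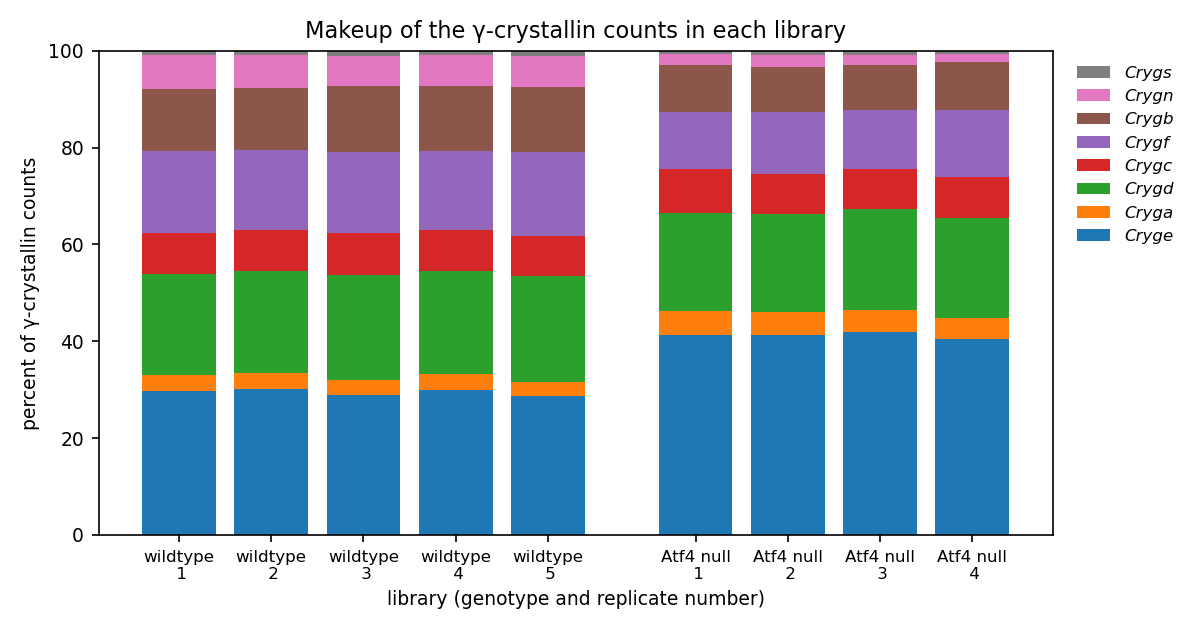
Percent of the counts on 8 γ-crystallin genes that each gene took, with 1 bar per library. Cryge takes about the same share within a genotype and a larger share in all 4 Atf4 null libraries (40.4% to 41.9%) than in the 5 wildtype libraries (28.7% to 30.2%).

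Against the other crystallins, the γ-crystallins as a group also held a smaller part. They took 19.7% to 20.4% of all crystallin counts in wildtype and 14.7% to 15.7% in null libraries, without overlap, and wildtype replicate 5, at 20.4%, lay with the other wildtype libraries. As a share of all gene counts, they took 2.55% ± 0.45 (SD, n = 5) in wildtype and 1.42% ± 0.42 (SD, n = 4) in null libraries, and here wildtype replicate 5 (1.75%) was below null replicate 4 (1.98%). Without wildtype replicate 5, the wildtype mean was 2.75%. Of the 8 α- and β-crystallins, 3 were called lower (3.67% of all genes tested), *Cryba2*, *Cryba4* and *Crybb2*, with a median log2 fold change of -0.63 over the 8. Only *Cryba4* kept its call without any 1 of null replicates 1 to 3 and wildtype replicates 1, 3 and 4. *Cryba2* and *Crybb2* then had adjusted p of 0.0619 to 0.125 (edgeR), and *Cryba2* lost its call without wildtype replicate 2 too (0.0774, edgeR). Without null replicate 4, *Cryba1* (0.0317) and *Crybb3* (0.0213) were called as well (edgeR). Without wildtype replicate 5, 6 of the 8 were called lower (4.96% of 14493 genes tested), as many as of the γ-crystallins, with a median of -0.76 against -1.19. *Crybb2*, a β-crystallin of low level in the embryonic lens, had the largest difference (-1.42, adjusted p = 0.035, edgeR) and *Crybb1* the smallest (-0.20, adjusted p = 0.721, edgeR). Taken as a ratio to the summed α- and β-crystallin counts of the same library, 6 of the 8 γ-crystallins were lower in null lenses without overlap, as were 1.48% of all genes tested. Of the genes in that sum, *Cryba1*, *Cryba2*, *Cryba4* and *Crybb3* were also lower without overlap, by 0.11 to 0.75 on the log2 scale. *Cryaa* and *Crybb1* were higher without overlap, and *Cryab* and *Crybb2* overlapped. *Crygn* was at 1.66% ± 0.061 (SD, n = 5) of that sum in wildtype and 0.373% ± 0.043 (SD, n = 4) in null libraries, and *Crygb* at 3.33% ± 0.12 and 1.69% ± 0.097. *Cryge*, at 7.40% ± 0.17 (SD, n = 5) and 7.31% ± 0.18 (SD, n = 4), and *Cryga*, at 0.802% ± 0.040 and 0.821% ± 0.019, overlapped between genotypes on this scale.

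**Figure D4:**
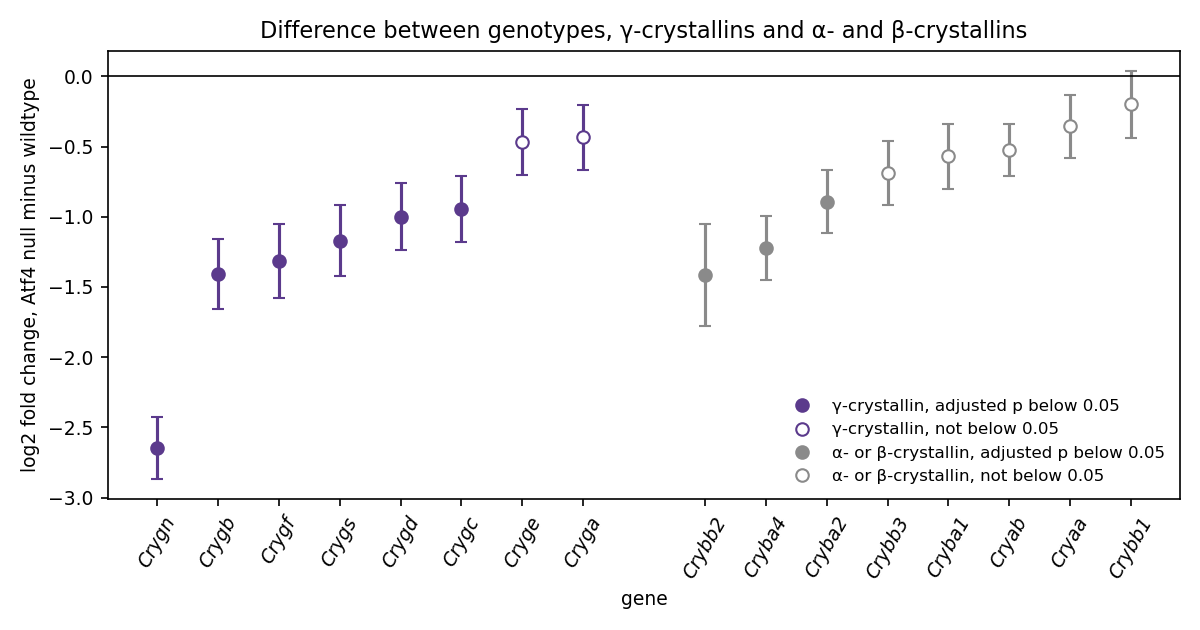
Log2 fold change of the 8 γ-crystallin and 8 α- and β-crystallin genes, Atf4 null minus wildtype, with bars of 1 SE from the edgeR fit over 9 libraries. Filled points passed an adjusted p of 0.05, and Crygn (-2.65) lies below all other crystallins.

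Per kilobase of summed exon length, *Cryge* was the most abundant member in wildtype, at 9699 ± 2156 FPKM (SD, n = 5), followed by *Crygf* (7130 FPKM), *Crygb* (5487 FPKM), *Crygd* (4752 FPKM), *Crygc* (2867 FPKM), *Crygn* (2206 FPKM), *Cryga* (1169 FPKM) and *Crygs* (281 FPKM). Each gene was above the next in 5 of 5 libraries, although the ranges of neighbours overlapped except for *Cryga* and *Crygs*. In null lenses the order was *Cryge* (7018 ± 2659 FPKM, SD, n = 4), *Crygf*, *Crygd*, *Crygb*, *Crygc*, *Cryga*, *Crygn* and *Crygs*, in 4 of 4 libraries at each step. *Crygd* thus stood above *Crygb*, and *Cryga* above *Crygn*, which was at 352 ± 86.8 FPKM.

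These orders depend on the length used. With only the positions of a transcript whose 100-base words are unique, the wildtype levels were 16468 FPKM for *Cryge*, 9614 for *Crygf*, 9403 for *Crygd*, 8347 for *Crygb*, 4030 for *Crygc*, 3069 for *Cryga*, 2645 for *Crygn* and 317 for *Crygs*. *Cryge* remained the highest and *Crygs* the lowest member, while *Crygd* moved above *Crygb* and *Cryga* above *Crygn*. In null lenses, *Crygd* (4707 FPKM) also moved above *Crygf* (3869 FPKM) and *Cryga* (2271 FPKM) above *Crygc* (2093 FPKM). With words of 150 bases, *Crygd* (9403 FPKM) stood above *Crygf* (9352 FPKM) in wildtype too, and the level of *Cryge* ran from 25255 FPKM with words of 50 bases to 14558 FPKM with words of 150 bases. The level of *Crygd* came to 1.98 times its value by the whole length, with 608 unique positions in a 788-base transcript against a summed exon length of 1203 bases, and that of *Cryga* came to 2.63 times.

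**Figure D5:**
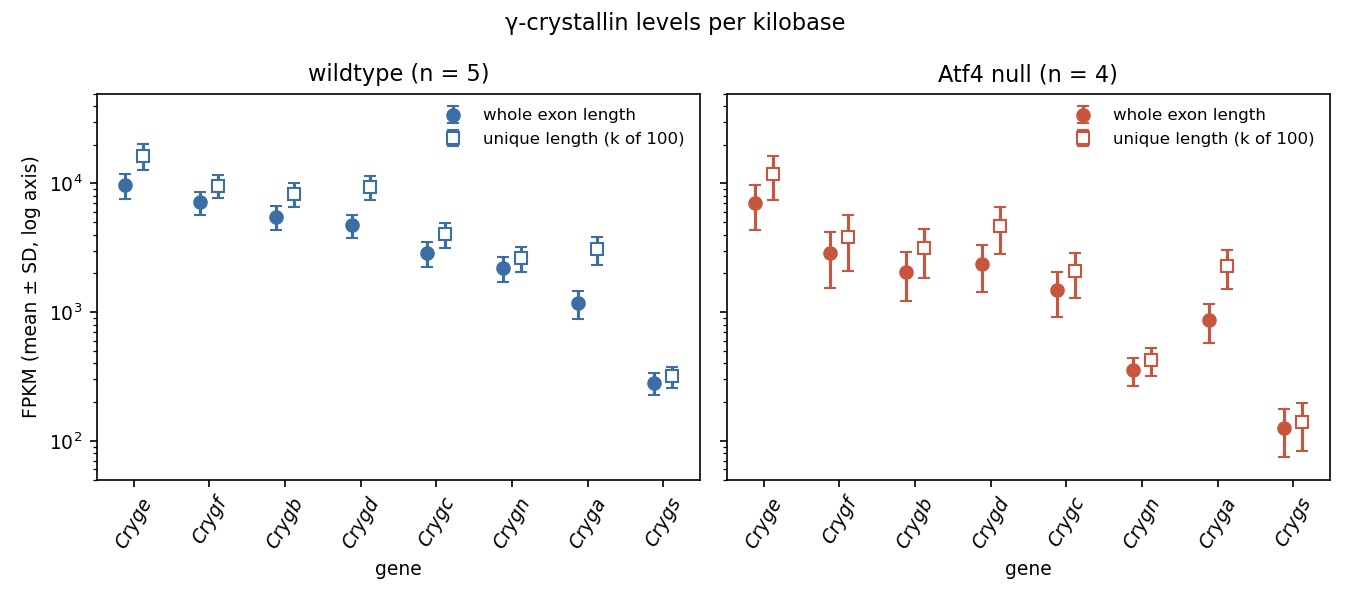
Level of each γ-crystallin gene in FPKM (mean ± SD, logarithmic axis) in 5 wildtype and 4 Atf4 null libraries, by the whole summed exon length (filled circles) and by the positions whose 100-base words occur in no other counted gene (open squares). Cryge is highest and Crygs lowest by both lengths in both genotypes, and Crygn drops below Cryga in null lenses by the whole length.

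The promoters of the members were compared because the chromosome 1 members varied together across libraries. That trait is not particular to them, since their summed counts also varied with *Cryaa* (r = 0.998) and *Maf* (r = 0.994) about the genotype means. The 100 bases before the start given by RefSeq (promoter windows of GRCm38.p6, each placed on GRCm39 by its single exact match on the chromosome) are printed below, 5′ to 3′ on the strand of the gene. Capitals mark TATATA and TTTGTG, the longest stretches that the 6 chromosome 1 members share in the 250 bases before the start, and TATAAA in *Crygs*. The capitals that open the *Cryge* line are the last bases of another TATATA, which begins before the printed stretch.
Cryga: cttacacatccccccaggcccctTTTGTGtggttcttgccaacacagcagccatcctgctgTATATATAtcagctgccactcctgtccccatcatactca
Crygb: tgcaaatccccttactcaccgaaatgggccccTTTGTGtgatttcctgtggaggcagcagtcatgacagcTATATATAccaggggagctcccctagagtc
Crygc: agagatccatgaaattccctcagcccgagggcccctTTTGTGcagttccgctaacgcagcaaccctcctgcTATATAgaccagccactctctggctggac
Crygd: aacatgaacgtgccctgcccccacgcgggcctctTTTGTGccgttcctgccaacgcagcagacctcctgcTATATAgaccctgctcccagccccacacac
Cryge: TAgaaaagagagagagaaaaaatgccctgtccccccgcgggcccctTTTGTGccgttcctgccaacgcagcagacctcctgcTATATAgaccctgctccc
Crygf: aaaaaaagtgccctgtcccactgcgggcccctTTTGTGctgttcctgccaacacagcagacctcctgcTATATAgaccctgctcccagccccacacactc
Crygn: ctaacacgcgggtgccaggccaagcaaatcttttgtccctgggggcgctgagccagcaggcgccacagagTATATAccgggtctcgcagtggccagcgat
Crygs: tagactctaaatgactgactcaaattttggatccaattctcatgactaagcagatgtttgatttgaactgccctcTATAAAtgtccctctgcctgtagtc

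On GRCm39 these lie at chr1:65142523-65142622 for *Cryga*, chr1:65121450-65121549 for *Crygb*, chr1:65112692-65112791 for *Crygc*, chr1:65102600-65102699 for *Crygd*, chr1:65090323-65090422 for *Cryge*, chr5:24962847-24962946 for *Crygn* and chr16:22630161-22630260 for *Crygs* on the minus strand, and at chr1:65965581-65965680 for *Crygf* on the plus strand. Letters were searched on both strands in the window of 250 bases before to 50 after the start and compared with 32851 promoters of the same length. TATATA and TTTGTG were picked because all 6 chromosome 1 members share them, so their presence in those 6 is no result. Of the other members, *Crygn* held TATATA (5.67% of all promoters), and neither *Crygn* nor *Crygs* held TTTGTG (17.7%). TATAAA was in *Crygs* alone (13.6% of all promoters). TGCTGA, a part of the MAF element, was in *Cryga*, *Crygc*, *Crygn* and *Crygs* (19.5%), and the SOX core ACAAAG was in *Cryga* and *Crygb* (18.7%), where in *Crygb* it overlaps the TTTGTG. The ATF4 element TGATGCAA (0.895%), the cyclic AMP element TGACGTCA (1.79%) and the heat shock core GAANNTTC (7.86%) were in no member's window, which says only that these letters are not in these bases.

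Of 12 regulators known to act on crystallin genes or their transcripts, 1 was called lower and 0 higher (3.67% and 2.23% of all genes tested), with a median log2 fold change of -0.15. The gene called was *Caprin2*, an RNA-binding protein of lens fiber cells, with 1417 ± 301 CPM (SD) in the 5 wildtype and 718 ± 257 CPM (SD) in the 4 null libraries (-0.98, adjusted p = 0.0223, edgeR). It lost its call without any 1 of null replicates 2 and 3 and wildtype replicates 1 to 4, with adjusted p of 0.0545 to 0.0844 (edgeR). *Maf*, a transcription factor that binds crystallin promoters, was at 1516 ± 346 CPM (SD, n = 5) and 1524 ± 622 CPM (SD, n = 4). The log2 fold changes of *Prox1*, *Sox1* and *Hsf4*, which encode factors that act on γ-crystallin promoters or on fiber maturation, were -0.25, 0.25 and -0.39, with adjusted p of 0.657, 0.633 and 0.442 (edgeR). A value that misses the threshold does not show that the gene did not differ.

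Around the chromosome 1 members, 33 other counted genes start within 500000 bases of the span from *Cryge* to *Crygf*, and 9 of them were tested. Of these, 1 was called lower and 1 higher, where 3.67% and 2.23% of all genes tested were. *Idh1*, which encodes an isocitrate dehydrogenase, was called lower (-0.55, adjusted p = 0.0282, edgeR) and *Fzd5*, a Wnt receptor gene also used in the retina, was called higher (1.11, adjusted p = 0.0459, edgeR). *Fzd5* had a mean of 44.7 ± 12.6 CPM (SD) in the 5 wildtype and 96.02 ± 44.5 CPM (SD) in the 4 null libraries. *Fzd5* lost its call without any 1 of null replicates 1 to 3 and wildtype replicates 1 to 4, with adjusted p of 0.0695 to 0.13 (edgeR). *Idh1* lost its call without any 1 of null replicates 2 to 4 and wildtype replicates 1, 2 and 4, with adjusted p of 0.0539 to 0.0913, and with scaling by library size alone (0.116, edgeR). *Ccnyl1* had the smallest difference of the 9 (0.11, adjusted p = 0.834, edgeR). The median of the 9 was 0.13.

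Across the 9 libraries, log2 CPM like that of *Crygn* was found, among the 5 closest genes, in *Sema5a* (r = 0.995), *Mgarp* (r = 0.992), *Rnf113a1* (r = 0.992) and *Tmprss11e* (r = 0.990), out of 9362 other genes with a mean of at least 10 CPM. The summed chromosome 1 members were most like *Cryba2*, a β-crystallin (r = 0.994), *Caprin2* (r = 0.993), *Hmgn3* (r = 0.993), *Tnrc6b* (r = 0.992) and *Crybb3*, another β-crystallin (r = 0.989). These r include the difference between genotypes. After the genotype means were taken out, the genes most like the summed members were *Cryaa*, which encodes αA-crystallin (r = 0.998), *Cryba1* (r = 0.997), *Crybb1* (r = 0.995), *Maf* (r = 0.994) and *Sox1* (r = 0.992), and those most like *Crygn* included *Cdv3* (r = 0.994), *Kcnj11* (r = 0.992), *Sfrp1* (r = 0.989) and *Nap1l1* (r = 0.989). The points share depth, scaling and the low wildtype replicate 5, so these values are descriptions.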

How the data were processed

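RNA libraries of single pairs of E16.5 lenses were prepared with a stranded kit. Per the labels and the study's methods, the authors trimmed reads with Trim Galore, aligned them to GRCm39 with HISAT2 and counted them over Ensembl genes by HTSeq, whose strand setting is not given in the sources used here. The deposited values are whole-number counts per gene without normalization. The 5 HTSeq summary entries (44.6% to 47.7% of entries) were left out. Symbols, positions and exon lengths came from GENCODE vM39 by gene identifier (54749 of 55416 matched). No library repeated another (chi-square of at least 7.93 per degree of freedom in 36 pairs).

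Genotypes were compared on all 9 libraries after filterByExpr and TMM scaling with edgeR 4.0.16 (R 4.3.3, quasi-likelihood test, no covariate), with Benjamini-Hochberg adjustment over 14903 genes and a threshold of 0.05, which 880 genes passed. The procedure was tested on simulated data. FPKM divide TMM-scaled CPM by kilobases of summed exon length. Log2 ratios of members used counts plus 0.5 and exact permutation tests of the absolute difference of means, two-sided (scipy 1.17.1). Coding sequences were aligned pairwise (Biopython 1.88) and together (MAFFT 7.526). Sequence words of 50, 100 and 150 bases were compared over transcripts of all genes counted. Promoters are RefSeq windows, and all 8 members matched.

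The members and lists were chosen with earlier results of these data known. Of the related lists, the text names the genes with the largest and the smallest difference, genes called where they are few, and *Maf*, *Prox1*, *Sox1* and *Hsf4*. The genes most alike are the 5 with the highest Pearson r, of which some are not reported here. Replicate numbers follow the sample titles, which for wildtype name another wildtype library than the counts do, so wildtype numbers are uncertain. Alternatives were exactTest, DESeq2 1.42.0, library size alone, TMM factors without crystallins, no filter, at least 10 counts in every library, the replicate number as a block, another pseudocount, unique lengths, and leaving out each library. Replicates 1 to 4 without a block and a doubled tail probability were added after the values had been seen. Embryo age and genotype are the labels' own, and no protein sequence was used.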

Additional observations from a re-analysis of the deposited data

Results flagged for a closer look

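Wildtype replicate 5 lay far below the other 4 wildtype libraries in 8 of 20 groups of values examined, where chance marks about 1 in 20 groups. The groups are not independent, since the γ-crystallins vary together across libraries. The CPM of this library were 496 for *Cryga*, 2244 for *Crygb*, 1403 for *Crygc*, 3643 for *Crygd*, 4787 for *Cryge*, 2872 for *Crygf* and 1085 for *Crygn*, and its γ-crystallin share of gene counts was 1.75%. Its CPM of *Crygs* and its γ-crystallin share of crystallin counts were not far from those of the other wildtype libraries by the same measure. The library also held 0.977% of its counts on skeletal muscle and 1.49% on mesenchyme genes, and their part in these values was not tested. No null library was marked.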

How the results depend on the processing

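All 8 members were lower in *Atf4* null lenses under each of the 17 alternatives to the comparison. Replicates 1 to 4 with no block and leaving out wildtype replicate 5 are the same fit, which the 17 count under both names. *Crygb*, *Crygf* and *Crygn* passed the threshold in all 17, *Crygs* in 16, *Crygd* in 11, *Crygc* in 10, and *Cryga* and *Cryge* in 1. When libraries were left out singly, the number of members called ran from 3 to 6, with 3 called without *Atf4* null replicate 3, and the log2 fold change from -1.24 to -0.77 for *Crygc*, from -1.30 to -0.81 for *Crygd* and from -1.41 to -0.935 for *Crygs*. Over the whole table, 880 genes were called, against 527 to 1207 with a library left out (527 without *Atf4* null replicate 2, 562 without null replicate 3, 570 without wildtype replicate 2, 562 without wildtype replicate 3) and 1397 with DESeq2. Scaling by library size alone moved the median log2 fold change of all genes from 0.001 to 0.125, and 6 members were called. The replicate number as a block, which leaves out wildtype replicate 5, gave 873 genes and all 8 members, with -0.63 for *Cryga* (adjusted p = 0.0379, edgeR) and -0.67 for *Cryge* (adjusted p = 0.0412, edgeR), and the same libraries with no block gave 1207 genes and 6 members. Under the block *Fzd5* was not called (adjusted p = 0.131, edgeR). Deviations of libraries with the same number had correlations of -0.0634, -0.00727, -0.031 and -0.0655. The wildtype numbers are uncertain and the titles name no litter, so these values cannot show whether libraries are pairs, and pairing by litter was not tested. Of the 28 ratios, 22 passed with all libraries or with 5 counts added, 21 with the tail probability doubled, and 21 to 22 with a library left out. The lowest count of a member in a library was 536, and reads of shared sequence were not counted.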
